A study of Mus musculus with 6 samples.

Results

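A set of 10 genes that mark dendritic cells or act in them was followed in RNA of cells sorted from mouse tumours. The genes were Flt3, Zbtb46, Batf3, Clec9a, Cd209a, Siglech, Fscn1, Irf8, Cd83 and Ly75, and a member was measured where a probe set was assigned to that gene alone. By this rule 9 of the 10 genes were found, on 16 of the 45037 probe sets tested. Clec9a had no such probe set and was not analysed here. Fscn1 and Zbtb46 had 4 probe sets each, Irf8 had 2, and each of the other members had 1.

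The RNA came from tumours grown under the skin of syngeneic mice from 344SQ, a lung adenocarcinoma line of a KrasLA1/+; p53R172HdelG/+ mouse that spreads widely after such injection. All 6 samples therefore shared the line, its alleles and the site, and no sample had an agent or a time point in the labels. Flow cytometry divided the tumour cells by CD133 into a high and a low fraction, each measured on 3 arrays. CD133 is the surface glycoprotein encoded by Prom1. The line is a single source of tumour cells, and the labels do not say that host leukocytes were removed before sorting on CD133. Nor do they tie the 3 arrays of either fraction to different mice or sorts, so the p-values rest on a spread between arrays that could be technical alone. The study's title concerns tumour cells that are prone to metastasis and respond to inhibition of Notch, so the comparison asks how the dendritic cell genes in the RNA of that CD133 high fraction stand against the CD133 low fraction.

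Dendritic cells take up antigen, carry it to lymph nodes and present it to T cells. They develop under the growth factor FLT3 ligand, and the transcription factors IRF8, BATF3 and ZBTB46 specify or mark their lineages. Conventional type 1 cells carry CLEC9A and cross-present antigen, conventional type 2 cells serve helper T cells, and plasmacytoid cells, which carry SIGLEC-H in the mouse, make type I interferon. On maturation dendritic cells gain CD83 and the actin-bundling protein fascin. Several of these genes are also used elsewhere: Irf8 in B cells and monocytes, Cd83 in activated B cells, and Fscn1 in invasive carcinoma cells.

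Values are log2 probe set values as deposited, and each difference is the mean of the CD133 high arrays minus that of the CD133 low arrays, so −1 stands for one halving of the value. The array medians lay between 6.60 and 6.77. Prom1 read 5.49, 5.92 and 6.06 on the CD133 low arrays, against 6.80, 6.63 and 6.40 on the CD133 high arrays, with an adjusted p of 0.297. CD133 high replicate 1 stood apart from the other CD133 high arrays: its mean Spearman rho across probe sets was 0.973 with the CD133 low arrays and 0.931 with CD133 high replicates 2 and 3. The bacterial hybridisation controls averaged 10.19 to 10.51 on the CD133 low arrays, 10.38 on CD133 high replicate 1, and 11.29 and 11.04 on replicates 2 and 3. The plot of differences therefore shows every probe set of these genes without this array as well, and counts of calls for the dendritic cell genes and lists are also given without it. The epithelial markers Cdh1, Krt8 and Epcam read 12.28 to 12.52, 12.26 to 12.95 and 10.20 to 10.86 over the 6 arrays. Krt18, Krt19 and Krt7 were also bright, at 11.88 to 13.16, 9.94 to 11.12 and 10.19 to 10.80. The other listed epithelial markers were dimmer. Cldn7 and Cldn4 read 7.49 to 8.71 and 7.01 to 7.77, and Ocln and Nkx2-1 6.06 to 8.62 and 6.41 to 7.68. RNA of epithelial cells was thus present in both fractions. The leukocyte marker Ptprc read 12.74 to 13.20, so leukocyte RNA was present in both as well.

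Flt3, Irf8, Siglech and Cd83 read lower on all 3 CD133 high arrays than on all 3 CD133 low arrays. None of the 16 probe sets passed the test across the array (limma, Benjamini-Hochberg adjusted p from 0.151 to 0.913), where 0.182% of all probe sets did, 0.167% lower and 0.0155% higher in CD133 high. At an unadjusted p under 0.05 in limma, 5 of the 16 were lower and 0 higher, against 7.9% lower and 7.78% higher among all probe sets. The fractions did not overlap for the same 5 probe sets, all lower in CD133 high, whereas 10.5% of all probe sets lay that way and 10.3% lay the other way. By gene at the brightest probe set, 4 of 9 members did not overlap and were lower, against 12.8% of 18193 genes, and 0 were higher, against 10.8%. The median difference over the 9 genes was −0.63, and over all genes it was 0.0013. Without CD133 high replicate 3 the members' median was −0.18.

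Without CD133 high replicate 1, 4 of the 16 probe sets were called lower (limma), one each of Flt3, Irf8, Siglech and Cd83, and 1 probe set of Fscn1 was called higher. That setting called 11.8% of all probe sets lower and 9.5% higher. Its CD133 high side is replicates 2 and 3 alone. Their hybridisation controls were 11.29 and 11.04, against 10.19 to 10.51 on the CD133 low arrays. Their Gapdh control value at the 3′ end minus that of the transcript's middle was 0.44 and 0.46, against −0.09 to −0.07. Fraction and these array measures cannot be told apart in any result without CD133 high replicate 1. CD133 high replicate 1 had all 9 genes below their CD133 low mean, where 50.7% of all genes lay that way, and 6 of the 9 below all 3 CD133 low arrays, against 30% of all genes, with 0 of the 9 above them, against 28.7%. CD133 high replicates 2 and 3 had 5 and 6 of the 9 genes below the CD133 low range, against 36.9% and 40.9% of all genes. Above that range they had 1 and 2 of the 9, against 40.8% and 37.2%. In sorted bulk RNA, fewer dendritic cells, fewer other cells that use these genes and less transcript per cell cannot be told apart.

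**Figure D1:**
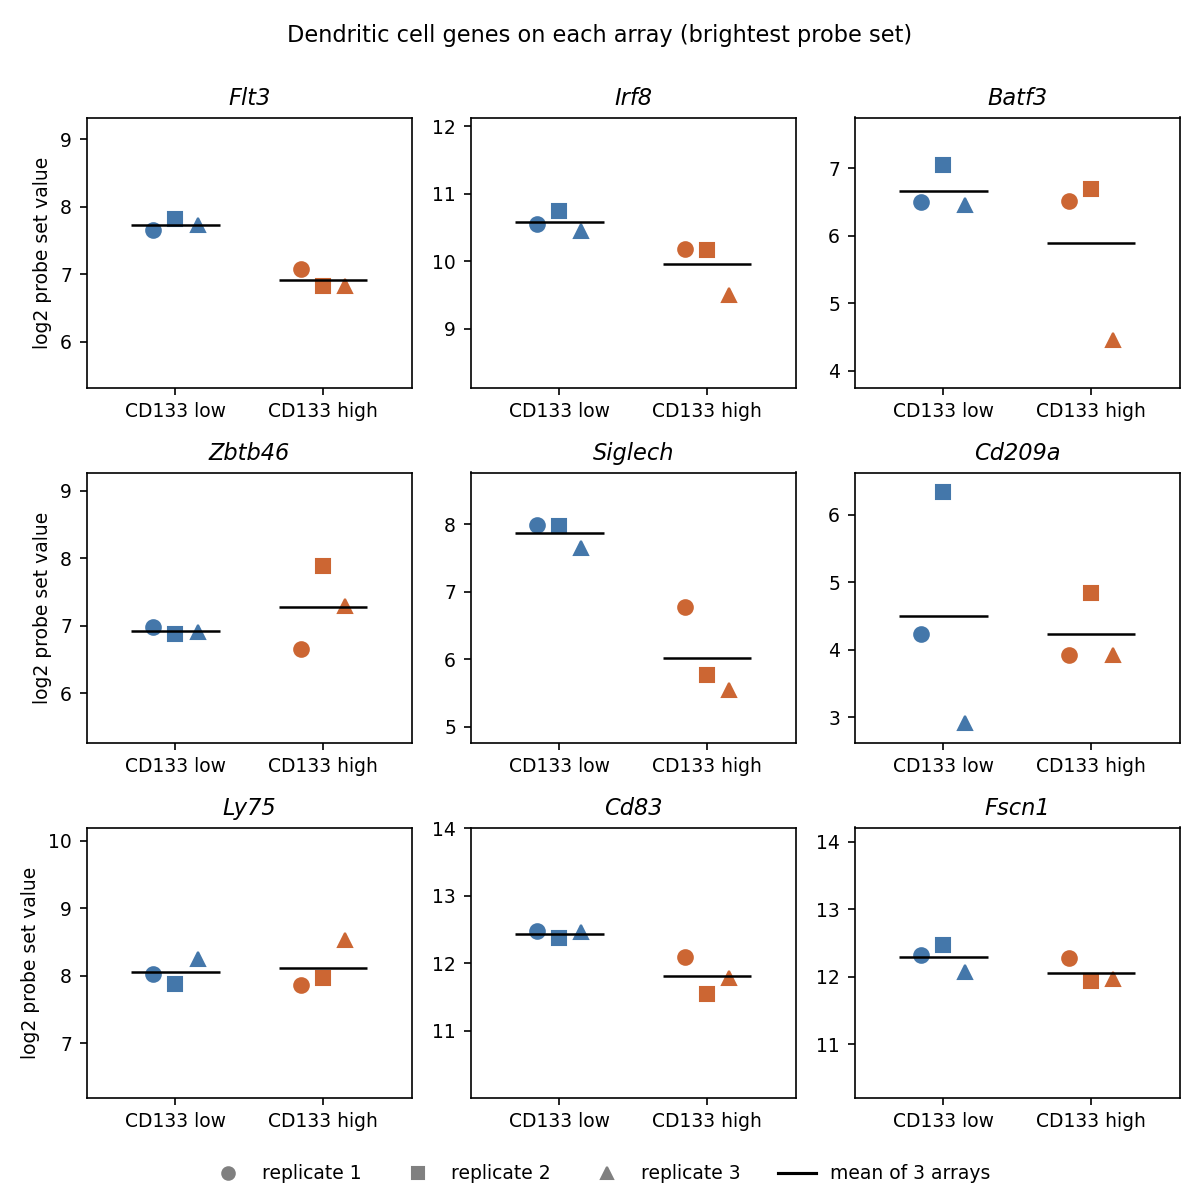
Log2 probe set value (vertical axis, spanning 4 log2 units in every panel) of each of the 9 measured genes at its brightest probe set on the 3 CD133 low and 3 CD133 high arrays; each point is an array and each bar the mean of 3. Flt3, Irf8, Siglech and Cd83 show fractions that do not overlap, whereas Batf3, Zbtb46, Cd209a, Ly75 and Fscn1 overlap.

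Flt3 encodes the receptor tyrosine kinase for FLT3 ligand, which dendritic cell progenitors need to expand. It lies on chromosome 5 of GRCm38.p6, at 147330741 to 147400489. Flt3 read 7.65, 7.82 and 7.73 on the CD133 low arrays, against 7.09, 6.83 and 6.82 on the CD133 high arrays. Each CD133 high array lay below the whole CD133 low range, with a gap of 0.56 between the nearest arrays of the fractions. The difference was −0.82 (SE 0.18, 95% interval −1.24 to −0.40), a value 1.76-fold lower, with an adjusted p of 0.209 in limma. Without CD133 high replicate 1 it was −0.91 (adjusted p = 0.0134), and CD133 high replicate 1 alone gave −0.65 (adjusted p = 0.36).

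Irf8 encodes an interferon regulatory factor that type 1 dendritic cells require and that plasmacytoid cells, B cells and monocytes also use. It lies on chromosome 8, at 120736358 to 120756694. Its brighter probe set read 10.56, 10.75 and 10.45 on the CD133 low arrays, against 10.18, 10.17 and 9.50 on the CD133 high arrays. The fractions did not overlap, and CD133 high replicate 3 was the lowest. The difference was −0.63 (SE 0.22, adjusted p = 0.297), and without CD133 high replicate 1 it was −0.75 (adjusted p = 0.0626). The other Irf8 probe set read 10.46, 10.38 and 10.56 against 10.02, 9.17 and 9.46, a difference of −0.92 (SE 0.23, adjusted p = 0.272). Both probe sets thus placed the CD133 high arrays lower, although replicate 2 was the lowest at one and replicate 3 at the other. The second Irf8 probe set was called lower without CD133 high replicate 1 (−1.15, adjusted p = 0.0051).

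Batf3 encodes a basic leucine zipper factor that type 1 dendritic cells need. It read 6.50, 7.05 and 6.45 on the CD133 low arrays, against 6.52, 6.69 and 4.46 on the CD133 high arrays. Replicates 1 and 2 of CD133 high lay inside the CD133 low range, and the low mean of the fraction came from replicate 3. The difference of −0.78 had an SE of 0.60 (adjusted p = 0.52), and without CD133 high replicate 3 it was −0.0608 (adjusted p = 0.941). Leaving out CD133 high replicate 1 instead gave −1.09 (adjusted p = 0.291).

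Zbtb46 encodes a zinc finger factor that marks the conventional dendritic cell lineage. At its brightest probe set it read 6.98, 6.88 and 6.91 on the CD133 low arrays, against 6.65, 7.89 and 7.30 on the CD133 high arrays. CD133 high replicate 1 lay below the CD133 low arrays and the other CD133 high arrays lay above them. The difference was 0.36 (SE 0.32, 95% interval −0.40 to 1.12, adjusted p = 0.577) in limma. Fitting the hybridisation controls of each array beside the fraction turned it to −0.30 (adjusted p = 0.886). Without CD133 high replicate 1 it was 0.67 (adjusted p = 0.0831), with fractions that no longer overlapped. Of the 4 Zbtb46 probe sets, 2 had a positive and 2 a negative difference, from −0.24 to 1.30, and none passed.

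Siglech encodes a sialic acid-binding lectin of the plasmacytoid dendritic cell surface in mice. It lies on chromosome 7, at 55768154 to 55779448. Siglech read 7.99, 7.98 and 7.64 on the CD133 low arrays, against 6.77, 5.77 and 5.54 on the CD133 high arrays. The nearest arrays of the fractions were 0.87 apart, and CD133 high replicate 1 lay between the CD133 low arrays and CD133 high replicates 2 and 3. The difference of −1.84 (SE 0.35, 95% interval −2.67 to −1.02), a value 3.59-fold lower, had an adjusted p of 0.151 in limma, the smallest among the 16 probe sets. Without CD133 high replicate 1 it was −2.22 (adjusted p = 0.0035), and CD133 high replicate 1 alone gave −1.10 (adjusted p = 0.321). Where the hybridisation controls were fitted too, it was −1.21 (adjusted p = 0.443).

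Ly75 encodes DEC-205, an endocytic receptor that delivers antigen for presentation. It read 8.03, 7.88 and 8.25 on the CD133 low arrays, against 7.86, 7.97 and 8.53 on the CD133 high arrays. The fractions overlapped throughout, with one CD133 high array below, one inside and one above the CD133 low range. The difference was 0.06 (SE 0.23, 95% interval −0.48 to 0.61, adjusted p = 0.899). Its sign turned with the hybridisation controls as a covariate, without CD133 low replicate 2, without CD133 high replicate 3 and in CD133 high replicate 1 alone.

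Cd209a encodes a C-type lectin of the DC-SIGN family, found on monocyte-derived and type 2 dendritic cells. It read 4.24, 6.34 and 2.91 on the CD133 low arrays, against 3.93, 4.85 and 3.93 on the CD133 high arrays. The 3 CD133 low arrays spread more widely than the fractions differed (−0.26, SE 0.85, adjusted p = 0.888), and without CD133 low replicate 2 the difference was 0.66 (adjusted p = 0.699). Paralogues of Cd209a were measured too, and short probes may detect more than one of them. Cd209d read 7.41, 7.68 and 7.07 on the CD133 low arrays, against 6.05, 5.61 and 5.43 on the CD133 high arrays. These fractions did not overlap, with a difference of −1.69 (SE 0.27, adjusted p = 0.103), and −1.87 without CD133 high replicate 1 (adjusted p = 0.0079). Cd209b had 2 probe sets of similar brightness, which differed by 1.30 and −0.016 (adjusted p = 0.297 and 0.986). Cd209c, Cd209e, Cd209f and Cd209g differed by 0.34, 0.59, 0.07 and 0.81 (adjusted p = 0.659, 0.518, 0.88 and 0.574), none past the threshold.

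Cd83 encodes a surface protein of the immunoglobulin superfamily that rises on mature dendritic cells and activated B cells. It lies on chromosome 13, at 43785112 to 43803133. Cd83 read 12.47, 12.38 and 12.46 on the CD133 low arrays, against 12.09, 11.55 and 11.78 on the CD133 high arrays. The CD133 low arrays lay within 0.1 of each other, and all CD133 high arrays lay below them. The difference was −0.63 (SE 0.18, 95% interval −1.07 to −0.20), a value 1.55-fold lower, with an adjusted p of 0.296. Leaving out CD133 high replicate 1 gave −0.78 (adjusted p = 0.0106), whereas fitting the hybridisation controls beside the fraction gave −0.31 (adjusted p = 0.733).

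Fscn1 encodes fascin, which bundles actin in the protrusions of mature dendritic cells and of migrating carcinoma cells. Its brightest probe set read 12.33, 12.48 and 12.07 on the CD133 low arrays, against 12.28, 11.95 and 11.96 on the CD133 high arrays. CD133 high replicate 1 lay inside the CD133 low range and the other CD133 high arrays just below it. The difference was −0.23 (SE 0.18, 95% interval −0.66 to 0.21, adjusted p = 0.534). The second probe set read 10.20, 10.17 and 10.08 against 9.85, 10.33 and 10.41, a difference of 0.05 (adjusted p = 0.913).

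The dimmer Fscn1 probe sets did not settle a direction. One read 6.65, 6.27 and 6.55 against 6.03, 7.30 and 7.94, a difference of 0.60 (adjusted p = 0.526), and without CD133 high replicate 1 this probe set was called higher, at 1.13 (adjusted p = 0.0333). The other read 2.23, 3.80 and 2.13 against 2.28, 0.03 and 1.65, a difference of −1.41 (adjusted p = 0.389). Of the 4 Fscn1 probe sets 2 had a positive and 2 a negative difference, also without CD133 high replicate 1.

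**Figure D2:**
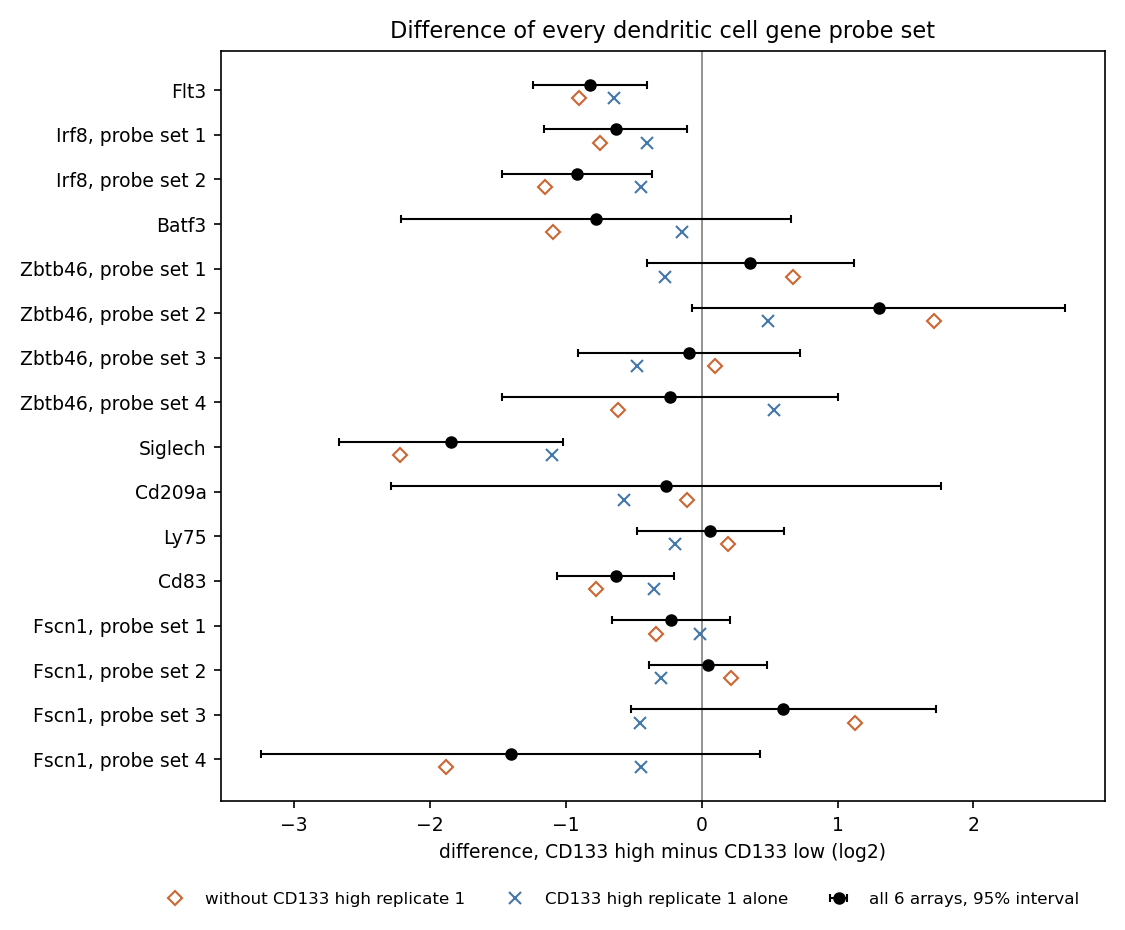
Log2 difference between the fractions, CD133 high minus CD133 low (horizontal axis), for each of the 16 probe sets, numbered within a gene from the brightest; black points are all 6 arrays with the 95% interval of the moderated fit, open diamonds leave out CD133 high replicate 1, and crosses are CD133 high replicate 1 alone. The intervals of Flt3, both Irf8 probe sets, Siglech and Cd83 lie below 0, and for each of these probe sets the value of CD133 high replicate 1 alone is negative and smaller in size.

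The stretches of DNA just before the annotated starts of 3 of the genes with non-overlapping fractions are shown because these genes were lower on the same arrays. They are the RefSeq sequences of GRCm38.p6, written 5′ to 3′ on the strand of the gene, and stop at the base before the annotated gene. Capitals mark a match to TATAAA, the TATA box. Flt3 is on the minus strand at chr5:147400490-147400739, Irf8 on the plus strand at chr8:120736108-120736357, and Siglech on the plus strand at chr7:55767934-55768153.
Flt3: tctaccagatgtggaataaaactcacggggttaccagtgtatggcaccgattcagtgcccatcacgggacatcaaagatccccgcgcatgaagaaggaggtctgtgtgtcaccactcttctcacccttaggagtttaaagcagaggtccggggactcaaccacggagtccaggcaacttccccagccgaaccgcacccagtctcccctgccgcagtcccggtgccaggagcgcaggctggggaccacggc
Irf8: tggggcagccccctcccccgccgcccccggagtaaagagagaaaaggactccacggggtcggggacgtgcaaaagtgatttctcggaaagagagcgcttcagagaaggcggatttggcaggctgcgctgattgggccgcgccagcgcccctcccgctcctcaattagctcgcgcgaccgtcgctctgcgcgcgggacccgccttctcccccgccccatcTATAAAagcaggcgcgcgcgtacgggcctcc
Siglech: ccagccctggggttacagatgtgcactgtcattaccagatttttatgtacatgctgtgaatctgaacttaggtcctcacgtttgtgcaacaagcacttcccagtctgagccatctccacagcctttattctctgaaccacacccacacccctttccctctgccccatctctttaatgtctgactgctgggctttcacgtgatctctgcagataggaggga

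The 5 motifs were searched for on both strands of the 250 bases before each start that RefSeq gives, in the 32851 RefSeq promoters and in those of the 9 members that matched by symbol (all but Cd83). For Siglech 30 of these bases, and for Zbtb46 and a second start of Irf8 all 250, lay inside the annotated gene. The Siglech sequence shown above is therefore shorter than its window. Irf8 and Fscn1 held TATAAA beginning 31 bases before the start, and Clec9a and Cd209a held it on the other strand, whereas 12.4% of all promoters had a match. The interferon-stimulated response element GAAANNGAA was in 0 of the 9 members' windows and in 7.13% of all promoters, and the composite GGAANNGAA of Ets and IRF factors was found for Cd209a and in 6.99% of all promoters. Matches to these motifs and to GAGGAAG can share bases. The PU.1 core GAGGAAG was found for Batf3 and the AP-1 motif TGANTCA for Zbtb46, against 10.6% and 6.75% of all promoters. Flt3, Siglech and Ly75 held none of the 5.

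How far these genes could be read on the arrays differed. The 81 probe sets of smell, taste and pheromone receptor genes, which serve as a reading of probe sets with little target RNA, had a median of 4.98 and 5th and 95th percentiles of 0 and 7.37. Probe sets differ in affinity, so this range is a guide and no threshold. Irf8, Cd83, Ly75 and the brighter pair of Fscn1 probe sets lay above 7.37 on all arrays. Flt3 and Siglech lay above it on the 3 CD133 low arrays and inside it on the 3 CD133 high arrays, so the size of their differences is less certain than the order of the arrays. Batf3, Cd209a and 3 of the 4 Zbtb46 probe sets lay inside that range on all arrays. Prom1, the gene of CD133, also lay inside it on all arrays, at 5.49 to 6.80. Both Cd209b probe sets, Cd209c, Cd209e and Cd209g lay inside it on all arrays as well. Cd209d did so on the CD133 high arrays and on CD133 low replicate 3. Xcr1, the chemokine receptor that defines type 1 cells, read 5.84, 5.90 and 5.90 against 5.78, 6.31 and 4.96, also inside it. Of the genes that define type 1 cells, Clec9a was therefore not measured, and Batf3 and Xcr1 stayed in this range in both fractions.

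**Figure D3:**
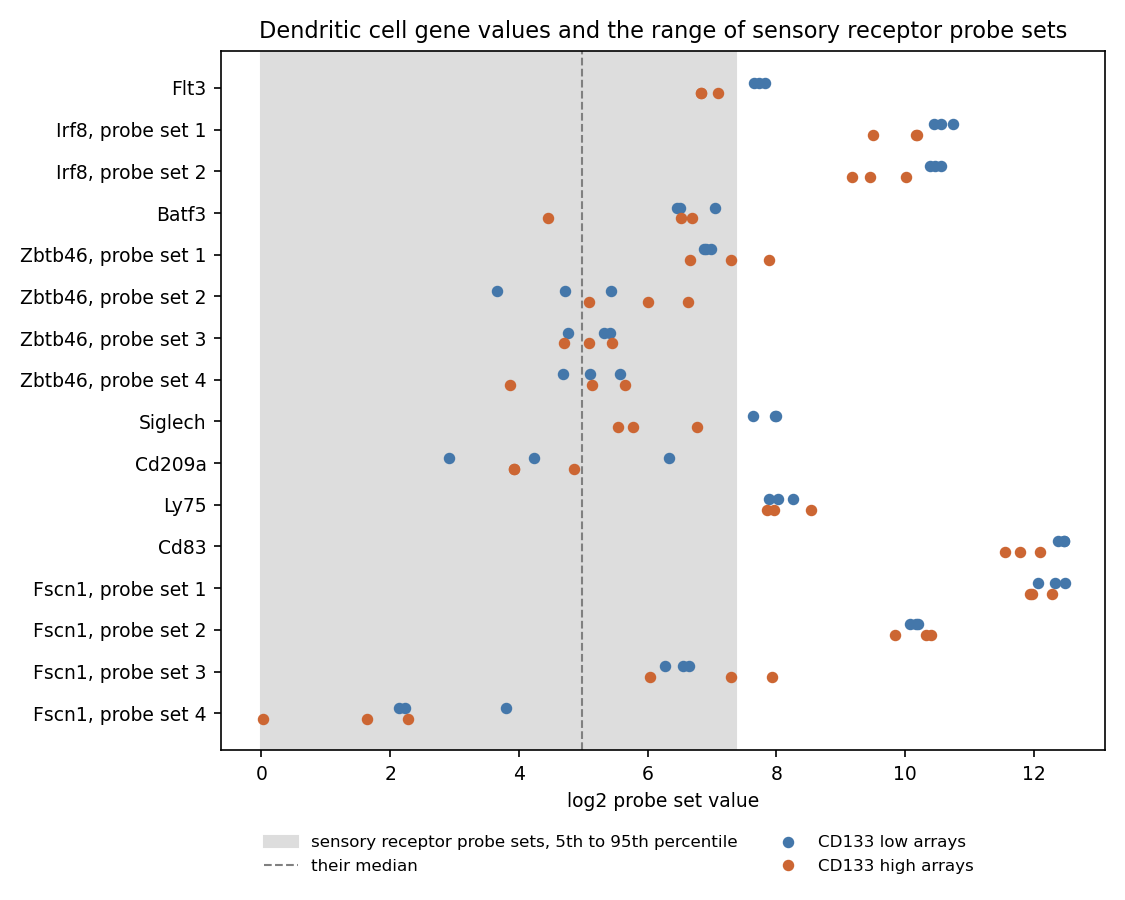
Log2 probe set value (horizontal axis) of every dendritic cell gene probe set on the 3 CD133 low (blue) and 3 CD133 high (orange) arrays, with the 5th to 95th percentile range (grey) and median (dashed) of 81 sensory receptor probe sets. Irf8, Cd83, Ly75 and the brighter pair of Fscn1 probe sets lie to the right of the grey range, and Siglech and Flt3 cross into it on the CD133 high arrays.

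Further genes of the same cells were taken in lists by role. No gene of these 6 lists passed across the array in limma, where 0.231% of all genes were called lower and 0.022% higher. That count depended on the processing and the threshold. Ccr7 and Irf4 were each called lower in 7 of 18 alternatives, Il15 higher in 6 of 18 and Cd209d lower in 4 of 17. The calls of Ccr7, Irf4 and Il15 include that at the looser threshold of 0.1 on the unchanged fit. Among 16 transcription factors of dendritic cells the median difference was −0.28, and 5 were lower and 1 higher at an unadjusted p under 0.05, against 9.94% and 8.3% of all genes. The sign of this median depended on the fit: it was 0.26 where the hybridisation controls were fitted too, 0.23 for CD133 high replicate 1 by itself and −0.59 without that array. Irf4, a factor of type 2 dendritic cells and of lymphocytes, read 9.03, 9.42 and 9.61 on the CD133 low arrays, against 7.96, 7.23 and 7.57 on the CD133 high arrays (−1.77, SE 0.25, adjusted p = 0.07), and without CD133 high replicate 1 it stood at −1.95 (adjusted p = 0.0053). Spib, an Ets factor of plasmacytoid dendritic cells and B cells, read 8.57, 8.82 and 8.70 against 6.57, 7.39 and 7.57 (−1.52, SE 0.28, adjusted p = 0.144). Bcl11a, a factor of the same lineages, stood at −0.93 (SE 0.18, adjusted p = 0.168). All 3, picked by the smallest p of the list, had fractions that did not overlap. Over the list, 4 of 16 factors did not overlap and were lower, and 1 was higher, against 12.8% and 10.8% of all genes. Spi1 and Id2, factors of many myeloid cells, differed by −0.04 and −0.11 (adjusted p = 0.932 and 0.85). Of the 16 factors, 7 were called lower and 0 higher without CD133 high replicate 1 (limma), against 14.6% and 11.7% of all genes.

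The plasmacytoid list had a median of −0.37 over 11 measured genes. It was −0.09 without CD133 high replicate 1 and −0.05 with array weights, and −0.46 to −0.05 over 18 alternatives. Relative to the CD133 low means, it stood at −0.20, −0.36 and 0.07 on CD133 high replicates 1, 2 and 3. At an unadjusted p under 0.05 in limma 4 genes were lower and 0 higher, against 9.94% and 8.3% of all genes. Pacsin1, an endocytosis adaptor, differed by −1.01 (SE 0.21, adjusted p = 0.204). The homing receptor Ccr9 and the inhibitory receptor Lag3, which T cells carry as well, differed by −0.64 and −0.46 (adjusted p = 0.297 each). Pacsin1, Ccr9 and Lag3, picked by the smallest p of the list, had fractions that did not overlap. Over the list, 4 of 11 genes did not overlap and were lower, and 0 were higher, against 12.8% and 10.8% of all genes. Tcf4, the factor that specifies plasmacytoid cells, differed by 0.27 (SE 0.30, adjusted p = 0.66), with fractions that overlapped. Of the 11 genes, 4 were called lower and 1 higher without CD133 high replicate 1, against 14.6% and 11.7% of all genes.

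The type 1 list of 12 genes had a median of −0.25, with 3 lower and 2 higher at an unadjusted p under 0.05 in limma. Among all genes, 9.94% were lower and 8.3% higher at that p. Tap1, the peptide transporter of class I presentation, stood at −1.03 (SE 0.17, adjusted p = 0.11) at its brightest probe set and at −0.067 (adjusted p = 0.878) as the mean of its probe sets. Wdfy4, which cross-presentation needs, differed by −0.45 and the adhesion molecule Cadm1 by 0.64 (adjusted p = 0.297 each), with 0.17 for Cadm1 as the mean of its probe sets (adjusted p = 0.565). The 14 type 2 and lectin genes had a median of 0.02, with 1 lower, Cd209d, and 2 higher, Cd209b and the mannose receptor Mrc1 (0.58, adjusted p = 0.311), at an unadjusted p under 0.05. Itgax, which encodes CD11c, read 10.99, 10.79 and 10.99 against 11.20, 9.97 and 10.14, so CD133 high replicate 1 lay above and the other CD133 high arrays below the CD133 low range. Without CD133 high replicate 1, 5 type 1 genes were called lower and 3 higher, and 3 type 2 and lectin genes lower and 2 higher. Among all genes, 14.6% were called lower and 11.7% higher in that setting.

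Genes of maturation were divided. Of 19 measured genes 1 was lower and 3 were higher at an unadjusted p under 0.05 in limma, against 9.94% and 8.3% of all genes. The list median was −0.06, and 0.47 where the hybridisation controls were fitted too. Ccr7, the receptor that guides mature dendritic cells and lymphocytes to lymph nodes, read 11.07, 11.18 and 11.15 on the CD133 low arrays, against 9.34, 7.99 and 8.04 on the CD133 high arrays (−2.67, SE 0.36, adjusted p = 0.0633), and without CD133 high replicate 1 it stood at −3.12 (adjusted p = 0.00038). Il15, a cytokine that dendritic cells present to natural killer and memory T cells, lay the other way, with 7.49, 7.16 and 7.29 against 8.53, 8.94 and 9.35 (1.62, SE 0.24, adjusted p = 0.0808), and stood at 1.83 without CD133 high replicate 1 (adjusted p = 0.0045). Cd274, which encodes PD-L1, stood at 0.55 (SE 0.19, adjusted p = 0.297). Ccr7, Il15 and Cd274, picked by the smallest p of the list, had fractions that did not overlap. Over the list, 1 of 19 genes did not overlap and was lower, and 4 were higher, against 12.8% and 10.8% of all genes. Among 9 measured growth factor and receptor genes the median was 0.19, or −0.01 with the mean of each gene's probe sets, and Kitl, which encodes stem cell factor, read 8.54, 8.24 and 8.71 against 9.25, 9.15 and 9.61 (0.84, SE 0.20, adjusted p = 0.246). Csf2ra, a chain of the GM-CSF receptor, stood at −0.61 (adjusted p = 0.452) and turned to 0.36 in CD133 high replicate 1 alone (adjusted p = 0.386), with −1.10 when that array was left out (adjusted p = 0.0068), while Tnfsf11, which encodes RANK ligand, differed by 0.35 (adjusted p = 0.406). In the fit without CD133 high replicate 1, 6 maturation genes were called lower and 4 higher, and 2 growth factor and receptor genes lower and 1 higher (limma). Among all genes, 14.6% were called lower and 11.7% higher in that fit.

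Some markers of lymphocytes, which share Irf8, Cd83, Irf4, Spib and Ccr7 with dendritic cells, were lower on the CD133 high arrays. Of 10 measured B-cell markers 4 fell (limma, adjusted p under 0.05), against 0.231% of all genes, and the median was −2.17. Their summed level, as log2 of the mean linear value, was 9.77 to 10.07 on the CD133 low arrays, against 7.52 to 8.42 on the CD133 high arrays. Cd79b, a chain of the B-cell antigen receptor, fell by 4.10 (SE 0.26, adjusted p = 0.0114), the largest difference of the list. Fcer2a and Cd22 stood at −0.32 and −0.22, and Blk and Pax5 at 0.11 and 0.07, all with fractions that overlapped. Of 12 measured T-cell and natural killer cell markers 5 fell and the median was −1.81, with summed levels of 9.20 to 9.64 and 7.39 to 7.88, while Cd8a and Cd4 stood at 0.31 and 0.44 with fractions that overlapped. These calls were lost in limma when any one CD133 low replicate or CD133 high replicate 3 was left out. No marker of either list was at 0 on any array, which does not show that each was detected. Cd4 read 1.18 to 3.55 over the 6 arrays, below the sensory receptor median of 4.98. Pax5 read 6.36 to 7.36, inside the 5th to 95th percentile range of the sensory receptor probe sets. The part of lymphocyte RNA in the differences of the dendritic cell genes was not tested.

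The dendritic cell genes and the markers of other leukocytes were also set side by side on each CD133 high array. Relative to the CD133 low means, the median of the 9 dendritic cell genes was −0.35, −0.35 and −0.66 on CD133 high replicates 1, 2 and 3. Pan-leukocyte markers (15 genes) stood at 0.04, −0.88 and −1.08 on these arrays, so CD133 high replicate 1 was low for the dendritic cell genes and level for pan-leukocyte markers. B-cell markers stood at −2.62, −1.69 and −1.73, lowest on replicate 1, and T-cell and natural killer cell markers at −1.54, −1.80 and −2.23. The median of macrophage and monocyte markers (12 genes) stayed between −0.09 and 0.09 on the 3 CD133 high arrays, while single markers moved both ways. Cd163 stood at 0.49, 1.34 and 1.87 on replicates 1, 2 and 3, and Ccr2 at −0.20, −1.26 and −1.45. The median of neutrophil markers ranged from −0.92 to 0.69. Between the Gapdh control probe sets, the value at the 3′ end minus that of the transcript's middle was −0.13 on CD133 high replicate 1, 0.44 and 0.46 on replicates 2 and 3, and −0.09 to −0.07 on the CD133 low arrays, so this measure of RNA quality moved with replicates 2 and 3. Its part in these differences was not tested.

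**Figure D4:**
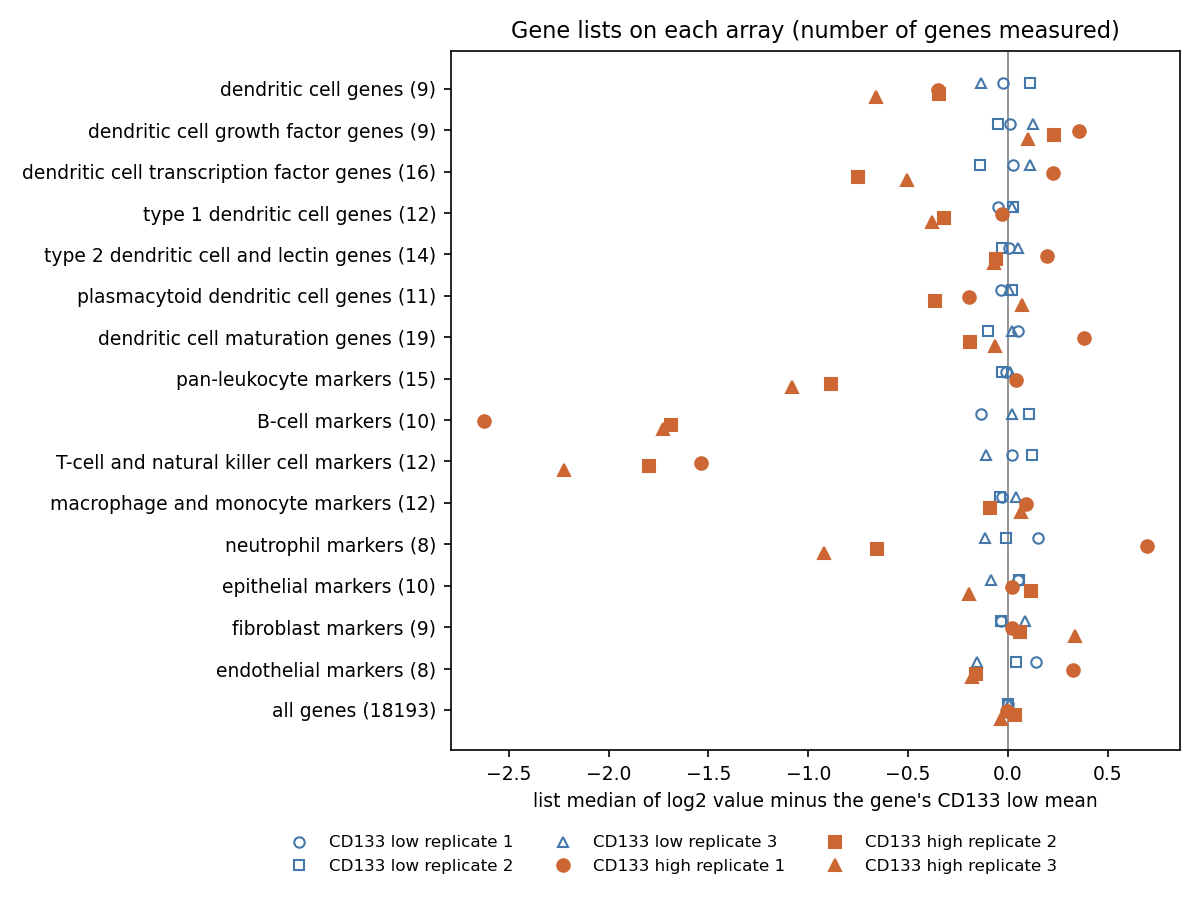
Median over each gene list of the log2 value minus the gene's CD133 low mean (horizontal axis) on each CD133 low array (open blue) and CD133 high array (filled orange), with the number of genes measured. The dendritic cell genes lie at −0.35, −0.35 and −0.66 on CD133 high replicates 1, 2 and 3, while pan-leukocyte markers are near 0 on replicate 1 and B-cell markers are lowest there.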

How the data were processed

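Fractions of 344SQ tumours sorted on CD133 were measured, 3 arrays for each. Per the labels' protocols, an Ambion kit gave the RNA, which was checked on a NanoDrop and a Bioanalyzer and labelled with biotin by the Affymetrix protocol. By their range, the deposited values are on a log2 scale, one per probe set. How the authors summarised and normalised the probes was not stated in the labels. These name a 430A 2.0 array, whereas the deposited values cover 45101 probe sets, those of a larger array of the same maker by its platform annotation, which supplied the gene names.

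Fractions were compared with limma 3.58.1 (R 4.3.3, with data.table, version 1.17.8) on the deposited values, with a variance trend, two-sided, and Benjamini-Hochberg adjustment over 45037 probe sets (64 controls left out). The threshold was 0.05, and 95% intervals are those of the moderated fit. The steps were tested on simulated data. In the annotation 34945 probe sets have 1 gene, 932 several and 9160 none named here. The Entrez identifier of 34741 matched a RefSeq gene, and 0 symbols changed. A gene stands at its brightest probe set by the mean over 6 arrays unless said otherwise. With 3 arrays a fraction, 0.1 is the smallest two-sided p of an exact permutation test, which was therefore not run. The number of arrays limits the precision.

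The members, gene lists and tests were chosen with earlier results of these data known. Named genes are the members at every probe set and, per list, up to 3 genes by p. Outside this rule, further genes (Xcr1, Itgax, Spi1, Id2, Tcf4, Cd209c, Cd209e, Cd209f, Cd209g, Cd79b, Fcer2a, Cd22, Blk, Pax5, Cd8a, Cd4, Cdh1, Krt8 and Epcam) were chosen after their values were seen, as were the sensory receptor genes as a reading of dim probe sets, and the motifs. The labels number no replicates, so the numbers used here follow accession order and pair nothing. No array was a copy of another: the most probe sets with equal values in any pair was 702.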

Additional observations from a re-analysis of the deposited data

How the results depend on the processing

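No paired analysis was possible because the labels number no replicates. The alternatives were other scalings, filters, floors, variance models, array weights, hybridisation controls as a covariate, an average over the probe sets of each gene, a threshold of 0.1, leaving out each array, and, chosen after seeing the data, CD133 high replicate 1 alone. The differences of Flt3, Irf8, Siglech, Cd83, Batf3 and Fscn1 at the brightest probe set were negative under every alternative that gave a value. Batf3 and Cd209a gave none without the dimmest 50% of probe sets, since theirs are among those. Depth, here signal over background, limits Batf3, Cd209a and the dimmer Zbtb46 and Fscn1 probe sets.

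Of the 16 probe sets, 0 were called as reported and under the other settings, except with array weights (4 lower) and when arrays were left out in turn (0 to 4 lower and 0 to 1 higher, the calls without CD133 high replicate 1). With array weights, CD133 high replicate 1 had a weight of 0.248, the lowest. The members' median of −0.63 was −0.35 in CD133 high replicate 1 alone, and −0.75 to −0.18 when arrays were left out in turn.

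Over all probe sets, against 75 lower and 7 higher as reported, there were 152 and 12 with equal array medians, 164 and 11 without the dimmest 50%, 172 and 13 with a robust trend, and 170 and 25 at a threshold of 0.1. There were 31 lower with values below 5 set to 5, 6 lower and 1 higher with no variance trend, 2675 and 2133 with array weights, and 0 and 0 in CD133 high replicate 1 alone (limma). Averaged over the probe sets of each gene, 13 genes were higher, against 4 genes at the brightest probe set as reported. The lower count of that setting is not given here. Leaving out arrays in turn gave 0 to 5326 lower and 0 to 4277 higher, the high counts without CD133 high replicate 1, and the cause was not tested.

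Signs turned for some differences: Zbtb46 turned to −0.30 with the covariate and −0.27 in CD133 high replicate 1 alone, and Ly75 to −0.038 and −0.20 in the same settings. Leaving out arrays in turn, Ly75 ranged from −0.14 to 0.19 and Cd209a from −1.05 to 0.66, positive without CD133 low replicate 2. Csf2ra turned to 0.36 in both of the first settings. The cause was not tested.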
